A study of Homo sapiens with 32 samples.

Results

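The 6 transcripts described here encode proteins that place, remove or read N6-methyladenosine (m6A): WTAP, ALKBH5, YTHDF1, YTHDF2, YTHDF3 and YTHDC1. They were taken by gene name, with every merged peak that the deposited count table holds for them, which gave 20 of 26104 merged peaks and 6 of 7978 genes. WTAP had 2 peaks, ALKBH5 5, YTHDF1 5, YTHDF2 1, YTHDF3 4 and YTHDC1 3. A merged peak is a stretch of a transcript that the study called as enriched by an antibody against m6A and joined across libraries. Each is named below by its gene and the position the table gives within that gene (WTAP 3201).

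The samples were human embryonic stem cells of 2 established lines, H1 and MEL1, undifferentiated (S0) or differentiated in culture to posterior foregut (S3), pancreatic progenitors (S4) or immature β-like cells (S6). Each line had 2 replicates at each stage, and the labels name no genetic change and no drug. From every preparation fragmented mRNA was sequenced before (input) and after immunoprecipitation with the m6A antibody (IP), so 16 preparations gave 32 libraries. The input reads of a gene measure its expression, and the ratio of IP to input at a peak measures its m6A level.

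m6A is a methyl group that cells add to adenosines within their mRNA. It is written in the nucleus by a METTL3 and METTL14 complex that WTAP anchors in nuclear speckles, and it can be removed by the demethylase ALKBH5. YTHDC1 binds it in the nucleus and acts in splicing and export. YTHDF1, YTHDF2 and YTHDF3 bind it in the cytoplasm, where YTHDF2 is best known for recruiting deadenylases and YTHDF1 and YTHDF3 for translation and decay. The same libraries give both the amount of these transcripts and the IP to input ratio at their own merged peaks.

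Input libraries held 2652830 to 6879256 reads in peaks. IP libraries held 2378881 to 15674899, and the 2 lowest were those of MEL1 at S4. Mitochondrial transcripts took 11.6% to 41% of input reads. Stage markers followed the labels in part. The summed input level of 5 measured markers of undifferentiated cells was 3360 to 5150 CPM (counts scaled to a fixed library total) at S0 and 300 to 1760 later. That of 6 foregut markers was 14.1 to 15 CPM at S0 and 1010 to 2970 at S3. For 4 β-cell markers, 1 of which is the INS-IGF2 readthrough transcript, it was 63.5 to 249 CPM at S0 and 2610 to 5180 CPM at S6. In H1 the β-cell sum was already 1810 to 1980 CPM at S3 and 901 to 1180 CPM at S4, while in MEL1 it rose at each stage. At S6 most of it was INS-IGF2 (1790 to 4430 CPM) and CHGA (721 to 810 CPM). GLIS3 reached at most 16.9 CPM there and ISL1 at most 3.63 CPM. The 3 measured progenitor markers were no higher at S4 (42.4 to 73.1 CPM) than at S3 (40.4 to 93 CPM). The lines differed, also at S6, where progenitor markers summed to 143 to 145 CPM in MEL1 and 23.8 to 25.4 CPM in H1. The 3 measured liver markers AFP, APOA1 and VTN summed to 28000 to 32000 CPM at S3 and 61900 to 65100 CPM at S4 in MEL1, and to 434 to 440 and 137 to 187 CPM in H1, with 2860 to 2940 against 83.4 to 91.8 CPM at S6, while the undifferentiated markers summed to 300 to 311 and 424 to 434 CPM in MEL1 and 1490 to 1550 and 1490 to 1760 CPM in H1 at S3 and S4.

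The amounts of the 6 transcripts moved modestly across stages. By the mean over both lines, ALKBH5 was highest at S6 and the other genes were lowest there. WTAP, YTHDF1 and YTHDC1 had their highest mean at S3. Single lines did not all follow this order. WTAP and YTHDF1 in H1 and YTHDC1 in MEL1 were lowest at S0, and YTHDF2 in MEL1 at S4. WTAP and YTHDC1 in H1 and YTHDF1 in MEL1 were highest at S4. From S0 to S6 only ALKBH5, YTHDF2 and YTHDF3 passed the test described below, and from S3 to S4 only ALKBH5. Levels are input CPM summed over a gene's merged peaks, and are compared across stages only and not between genes, because the widths of the peaks are not in the table. A gene is said to have risen or fallen where edgeR's quasi-likelihood test, with cell line as a covariate, gave a Benjamini-Hochberg adjusted p under 0.1 over all 7973 genes tested, and is said to be called where the change was also at least 2-fold. None of the 6 was called between S0 and S3, where 28.8% of all genes were called. None was called in the other comparisons either, in which 1.84% (S4 against S3), 5.18% (S6 against S4), 31.2% (S4 against S0), 31.4% (S6 against S0) and 14% (S6 against S3) of all genes were called. At an unadjusted p under 0.05 the members counted 2, 1, 3, 4, 3 and 5 in these 6 comparisons in turn. DESeq2 called 1 member, ALKBH5 in S6 against S3, and none in the other 5. In bulk RNA, fewer cells of a type and less RNA per cell cannot be told apart.

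**Figure D1:**
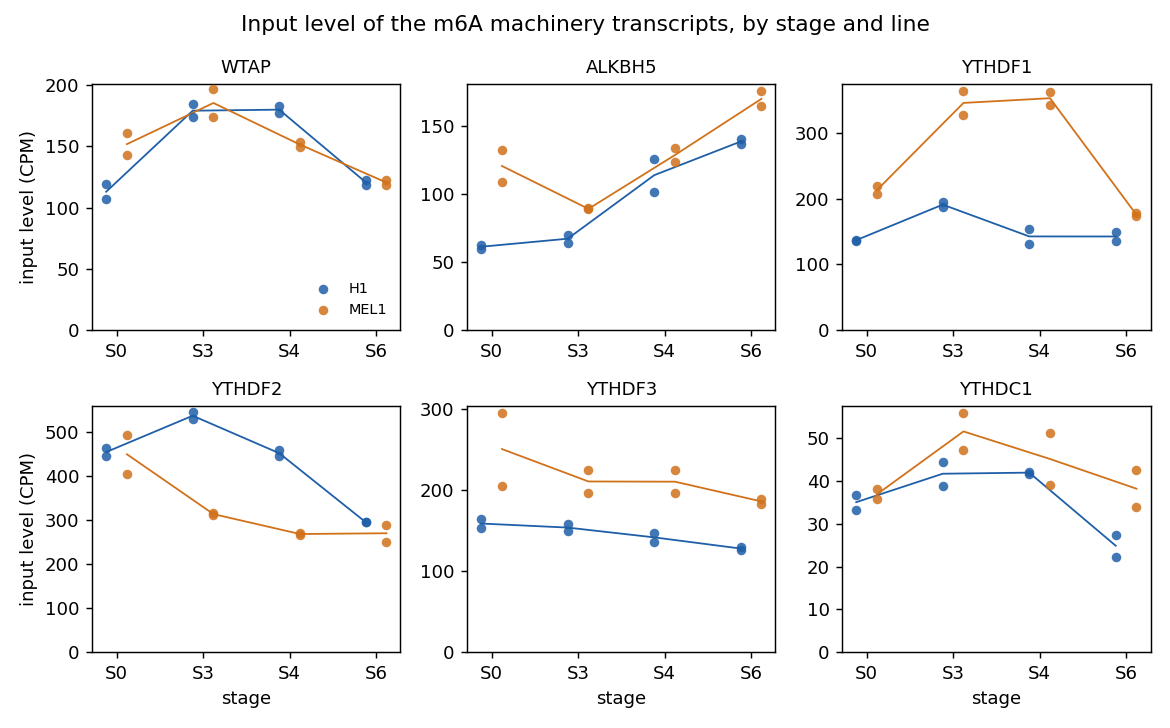
Input level in CPM (vertical axes, linear and starting at 0) of each of the 6 transcripts at S0, S3, S4 and S6. Points are single preparations, coloured by line, and lines join the means of 2 replicates. ALKBH5 lies between 59.9 and 132 CPM at S0 and between 136 and 175 CPM at S6, and YTHDF1 in MEL1 reaches 328 to 364 CPM at S3 and S4 while H1 stays between 132 and 194.

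WTAP, the writer cofactor, stood at 107 and 119 CPM in H1 and 161 and 143 CPM in MEL1 at S0. At S3 it was 174 and 184 CPM in H1 and 174 and 197 CPM in MEL1, so every S3 library lay above every S0 library. The change was 0.46 ± 0.15 on the log2 scale (SE, adjusted p = 0.0205). The peaks of WTAP did not move together over that step, as given below. The level was 183, 177, 153 and 150 CPM at S4 in the same order of libraries and 123, 119, 123 and 118 CPM at S6, where it was below every S3 and S4 library. WTAP rose by 0.33 ± 0.15 from S0 to S4 (adjusted p = 0.0825) and fell by 0.46 ± 0.15 from S4 to S6 (adjusted p = 0.0808) and by 0.59 ± 0.15 from S3 to S6 (adjusted p = 0.0117). The order of the stages was S3, S4, S0 and S6, and neither the first pair nor the last pair passed the test.

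ALKBH5, the eraser, was highest at S6. It stood at 59.9 and 62.5 CPM in H1 and 109 and 132 CPM in MEL1 at S0, and at 70.2, 64.1, 89.3 and 88.7 CPM at S3. It reached 126, 102, 123 and 134 CPM at S4 and 140, 136, 164 and 175 CPM at S6. All 4 S6 libraries were above all libraries of the other stages. The S4 libraries were all above the S3 libraries and overlapped those of S0. ALKBH5 rose by 0.81 ± 0.17 from S0 to S6 (adjusted p = 0.00126), by 0.99 ± 0.17 from S3 to S6 (adjusted p = 0.00108), by 0.65 ± 0.17 from S3 to S4 (adjusted p = 0.0735) and by 0.48 ± 0.17 from S0 to S4 (adjusted p = 0.0333), all on the log2 scale. The value from S3 to S6 was just under the 2-fold limit and passed it in H1 alone, at 1.07. S0 and S3, and S4 and S6, did not pass the test against each other. The 2 measured genes listed as neural markers, STMN2 and NEFL, also stood highest at S6. They summed to 715 to 721 CPM in H1 and 155 to 175 CPM in MEL1 there, against 0 to 57.1 CPM in all libraries of the other stages. The study lists STMN2 among γ-cell identity genes. The β-cell markers also summed highest at S6, at 2610 to 5180 CPM. The part of these markers in the S6 level of ALKBH5 was not tested.

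Among the cytoplasmic readers, YTHDF2 had its highest mean at S0, where the libraries read 464 and 447 CPM in H1 and 495 and 405 CPM in MEL1. At S3 they read 546, 530, 311 and 317 CPM, at S4 447, 459, 271 and 267 CPM, and at S6 296, 296, 289 and 252 CPM. Every S6 library was below every S0 and S3 library, and the lines were far apart at S3 and S4 and close together at S6. YTHDF2 fell by 0.69 ± 0.17 from S0 to S6 (adjusted p = 0.00514), by 0.54 ± 0.17 from S3 to S6 (adjusted p = 0.0418) and by 0.38 ± 0.17 from S0 to S4 (adjusted p = 0.0916), and no neighbouring pair of stages passed the test.

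YTHDF1 read 136 and 138 CPM in H1 and 207 and 220 CPM in MEL1 at S0, and 194, 188, 364 and 328 CPM at S3. It rose by 0.59 ± 0.18 over that step (adjusted p = 0.0154), with the groups of each line apart. At S4 it read 154, 132, 363 and 343 CPM and at S6 136, 150, 178 and 173 CPM. It rose by 0.41 ± 0.18 from S0 to S4 (adjusted p = 0.0695), where the groups overlapped, and fell by 0.68 ± 0.18 from S3 to S6 (adjusted p = 0.0154), where they did not.

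YTHDF3 read 153, 165, 296 and 206 CPM at S0, 150, 158, 197 and 225 CPM at S3, 148, 136, 225 and 197 CPM at S4 and 126, 130, 183 and 189 CPM at S6. The stages overlapped over both lines, while within each line both S6 libraries were below both S0 libraries. YTHDF3 fell by 0.37 ± 0.14 from S0 to S6 (adjusted p = 0.0411) and in no other comparison passed the test. The nuclear reader YTHDC1 was counted at 33.3, 36.8, 35.8 and 38.1 CPM at S0, 44.5, 38.9, 47.3 and 56 CPM at S3, 41.7, 42.2, 51.3 and 39.1 CPM at S4 and 27.5, 22.3, 42.6 and 33.9 CPM at S6. Its S3 libraries were all above those of S0, and it fell by 0.58 ± 0.18 from S3 to S6 (adjusted p = 0.0326).

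The changes between stages in input were not the same in both lines for 4 of the 6 genes. The difference between lines is written as the MEL1 change minus the H1 change. From S0 to S3 it passed the test for ALKBH5, at -0.57 ± 0.21 (adjusted p = 0.0406), and for YTHDF2, at -0.76 ± 0.18 (adjusted p = 0.00195), 2 of 6 genes against 45.9% of all genes. YTHDF2 fell by 0.52 in MEL1 over that step and changed by 0.24 in H1, which did not pass the test. From S4 to S6 it passed for YTHDF1, at -1.01 ± 0.18 (adjusted p = 0.000489), and for YTHDF2, at 0.62 ± 0.18 (adjusted p = 0.0195), where 23.1% of all genes passed. YTHDF1 fell by 1.01 in MEL1 from S4 to S6 while its H1 value was 0.00, and YTHDF2 fell by 0.61 in H1 while its MEL1 value was 0.01. From S3 to S4 none of the 6 passed against 14.1% of all genes, 1 had an unadjusted p under 0.05 (YTHDF1, 0.45 ± 0.18), and DESeq2 counted 1.

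The other 3 pairs of stages are sums of these steps. From S0 to S4 the difference passed for 4 genes, against 48% of all genes: WTAP at -0.67 ± 0.19 (adjusted p = 0.00682), ALKBH5 at -0.79 ± 0.21, YTHDF1 at 0.67 ± 0.18 and YTHDF2 at -0.74 ± 0.18. Each of the 4 genes passed the test in 1 line only over that span. WTAP rose by 0.67 and ALKBH5 by 0.89 in H1, with 0.00 and 0.09 in MEL1, while YTHDF1 rose by 0.73 and YTHDF2 fell by 0.74 in MEL1, with 0.06 and -0.01 in H1. From S0 to S6 it passed for WTAP, at -0.43 ± 0.19 (adjusted p = 0.0948), and ALKBH5, at -0.68 ± 0.21, where 36.3% of all genes passed, and from S3 to S6 for YTHDF1, at -0.55 ± 0.18, and YTHDF2, at 0.65 ± 0.18, where 26.9% did. The 4 calls from S0 to S4 held without each preparation in turn, that of WTAP from S0 to S6 was lost without any of 9 single preparations, and that of YTHDF1 from S3 to S6 without H1 S3 replicate 2, H1 S6 replicate 2 or MEL1 S3 replicate 1. From S0 to S3, the call of ALKBH5 was lost without H1 S0 replicate 1, H1 S3 replicate 1 or MEL1 S0 replicate 2, and from S4 to S6 that of YTHDF2 was lost without MEL1 S6 replicate 1.

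The 2 peaks of WTAP did not share 1 pattern of input. WTAP 3201 took 41% to 62.6% of the gene's input reads at S0, 67.2% to 79.2% at S3, 69.9% to 78.6% at S4 and 49.8% to 55.6% at S6. Its own input level was 48.2, 49.3, 89.7 and 90.7 CPM at S0, 130, 141, 118 and 141 CPM at S3, 140, 132, 106 and 112 CPM at S4 and 59.9, 63.1, 63.7 and 66.2 CPM at S6. WTAP 5151 read 59.1, 70.9, 75.7 and 54.3 CPM at S0, 37.4, 36.9, 57.4 and 56.6 CPM at S3, 38, 56.1, 45.5 and 40.6 CPM at S4 and 60.4, 53.8, 60.3 and 52.8 CPM at S6. The first peak was highest at the middle stages, whereas the second was not. With each peak tested alone by edgeR's quasi-likelihood test, WTAP 3201 rose by 0.95 ± 0.22 from S0 to S3 (adjusted p = 0.00342). WTAP 5151 fell by 0.48 ± 0.21 over that step (adjusted p = 0.0975). From S0 to S4 the same test gave 0.84 and -0.52 for them (adjusted p = 0.007 and 0.066). All of these changes were below the 2-fold limit. A test of peak usage, which asks whether a peak moved apart from the rest of its gene, gave -0.90 on the log2 scale for WTAP 5151 from S0 to S3 with an unadjusted p of 0.00498 and an adjusted p of 0.552, so the shift between the peaks did not pass this second test.

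**Figure D2:**
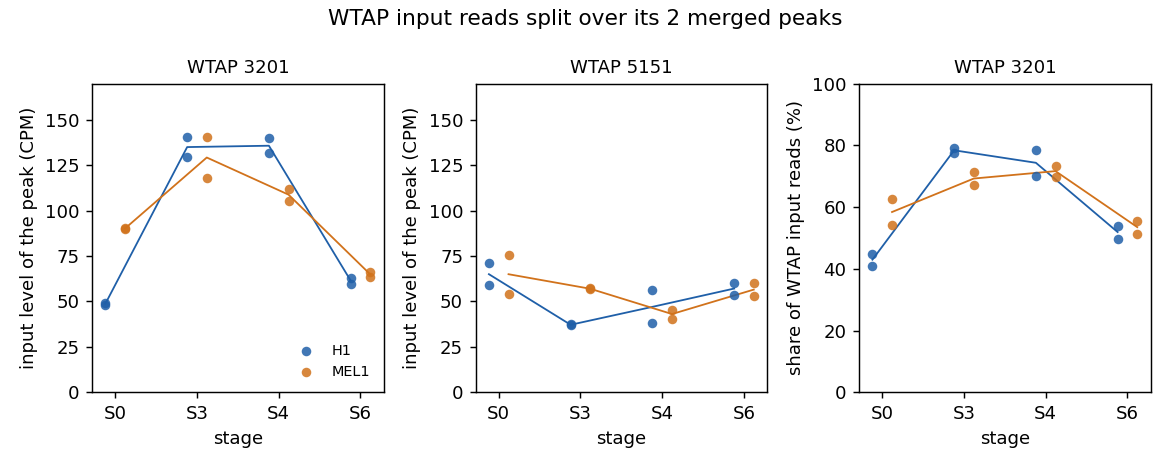
Input level in CPM of WTAP 3201 (left) and WTAP 5151 (middle), and the percent of WTAP input reads in WTAP 3201 (right), by stage and line. Points are single preparations and lines join the means of 2 replicates. The share in WTAP 3201 lies between 67.2% and 79.2% at S3 and between 49.8% and 55.6% at S6.

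Tested peak by peak, the input level of 2 of the 20 peaks was called between S0 and S6, where 30.6% of all peaks were called. ALKBH5 351 was higher at S6 by 1.19 ± 0.21 (adjusted p = 0.000321) and YTHDF3 3101 lower by 1.26 ± 0.35 (log2 change -1.26, adjusted p = 0.0095). Between S3 and S6, 4 were called against 10.6% of all peaks. ALKBH5 351, 1351 and 1451 were higher by 1.07 ± 0.21, 1.13 ± 0.33 and 1.10 ± 0.25, and WTAP 3201 fell by 1.07 ± 0.22 (adjusted p = 0.00436). From S0 to S3 (27.6% of all peaks called), S3 to S4 (1.08%), S4 to S6 (3.74%) and S0 to S4 (31%) edgeR called none of the 20, and 5, 3, 5 and 7 had an unadjusted p under 0.05.

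The transcripts differed widely in their own methylation. WTAP, YTHDF2 and YTHDF3 held peaks well above the middle of all merged peaks, and all 5 ALKBH5 peaks had less IP than input at every stage. The sign of a ratio depends on how IP and input are scaled to each other. Other scalings moved the median of all peaks by -0.16 to 0.52 at S4, so a negative ratio does not measure absence of m6A. The ratio of IP to input at a stage was called higher or lower at an adjusted p under 0.1 and a 2-fold difference. Since the peaks were called on these libraries, these counts describe a level. At S0, 7 of the 20 peaks were called higher and 6 lower, where 30.7% and 24.9% of all peaks were. At S3 the counts were 7 higher and 8 lower (30.3% and 31% of all peaks), at S4 4 and 7 (20.8% and 32.1%), and at S6 6 and 8 (28.4% and 34.6%). At S0, S3, S4 and S6 the median log2 ratio of all peaks was 0.28, 0.07, -0.30 and -0.12. To place a peak in a library pair without a choice of scaling, its ratio was also ranked among all 26104 peaks of that preparation and is given as a percentile.

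**Figure D3:**
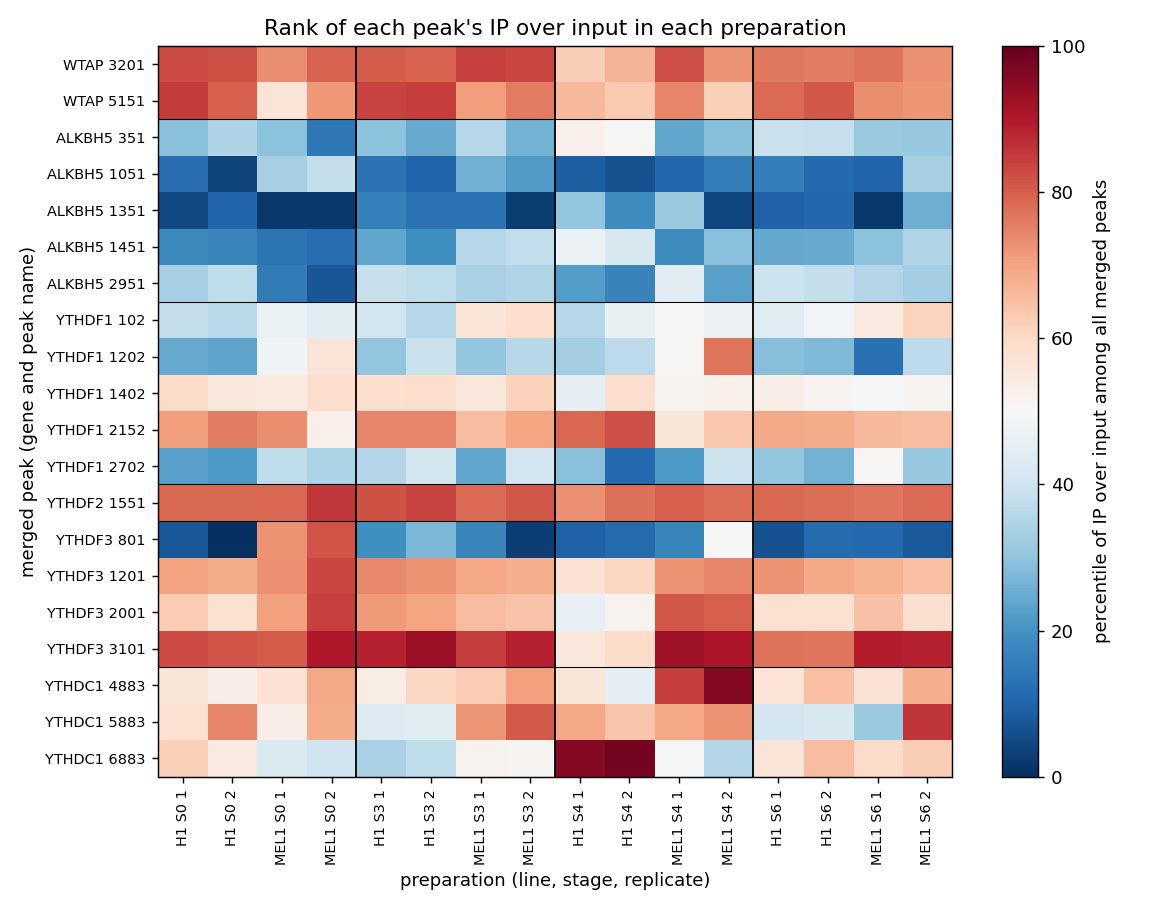
Rank of the IP to input ratio of each of the 20 merged peaks (rows) in each of the 16 preparations (columns), as a percentile among all 26104 merged peaks, shown by colour. YTHDF2 1551 stays between the percentiles 72.9 and 85.5 in all 16 columns, and YTHDC1 6883 ranges from 33.7 to 97.9.

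Both WTAP peaks were called higher at S0, S3 and S6. The log2 ratio of WTAP 3201 was 2.20 and 2.14 in H1 and 1.50 and 1.88 in MEL1 at S0, 1.89, 1.89, 2.24 and 2.18 at S3, 0.44, 0.64, 1.60 and 0.88 at S4 and 1.62, 1.62, 1.58 and 1.34 at S6. WTAP 5151 read 2.38, 2.02, 0.57 and 1.34 at S0, 2.10, 2.23, 1.32 and 1.68 at S3, 0.72, 0.44, 0.99 and 0.18 at S4 and 1.75, 1.94, 1.31 and 1.29 at S6. By mean ratio S4 was the low stage for both peaks, each of which was lower in every S4 library than in every S3 library, and at S0, S3 and S6 H1 was above MEL1 for WTAP 5151. By rank S4 was low in H1 only. WTAP 3201 ranked at 62.4 and 66.8 in H1 at S4 and at 75.5 to 82.5 in H1 at the other stages, but in MEL1 at 82.4 and 72.6 at S4, 73.2 and 79.4 at S0, 84.1 and 83.4 at S3 and 77.2 and 72.8 at S6. WTAP 5151 ranked at 74.6 and 61.9 in MEL1 at S4 and at 56.3 and 71.8 at S0, so S4 overlapped the other stages.

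With the main scaling, ALKBH5 had less IP than input at each of its peaks in each preparation. ALKBH5 351 stood between -3.34 and -0.74 at S0, between -2.11 and -1.07 at S3, between -3.36 and -0.21 at S4 and between -2.06 and -0.75 at S6, and ALKBH5 1451 and 2951 lay between -4.65 and -0.55 over all preparations. ALKBH5 1051 and 1351 had few IP reads, from 0 to 36 per library, and ALKBH5 1051 had 0 in all 4 IP libraries of S4, with 5 to 23 input reads. All 5 were called lower at every stage, but in H1 alone ALKBH5 351 at S4 had a ratio of -0.15, which did not pass. ALKBH5 351 ranked between 14.4 and 52.7.

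YTHDF2 1551, the only peak of this gene, was the steadiest of the highly methylated ones. Its log2 ratio was 1.96, 1.96, 1.85 and 2.35 at S0, 1.98, 2.16, 1.81 and 2.03 at S3, 1.18, 1.21, 1.39 and 1.22 at S4 and 1.78, 1.77, 1.56 and 1.73 at S6. It was called higher at all 4 stages, from 1.25 ± 0.22 at S4 to 2.04 ± 0.23 at S0. It was also deeply read, with 2530 to 39317 IP reads per library.

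YTHDF3 had 3 methylated peaks. YTHDF3 3101 was called higher at S4, at 1.47 ± 0.41, where its ratio was 2.70 and 2.35 in MEL1 but -0.02 and 0.22 in H1. It had the highest ratio of all 20 in the fit over both lines at S0, S3 and S6, at 2.30 ± 0.41, 2.57 ± 0.42 and 2.04 ± 0.42. In H1 alone WTAP 5151 had the higher mean ratio at S0 (2.20 against 2.17) and at S6 (1.85 against 1.68). YTHDF3 1201 was called higher at S0 (1.61 ± 0.23), S3 (1.35 ± 0.23) and S6 (1.11 ± 0.23), and YTHDF3 2001 at S0 (1.37 ± 0.32) and S3 (1.18 ± 0.31). YTHDF3 801 had 112 and 119 IP reads in the 2 MEL1 S0 libraries and 0 to 9 in the other 14, with 5 to 36 input reads in all, so a fitted fold for it depends on the prior count and is no measure of size.

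YTHDF1 was mixed. YTHDF1 2152 was called higher at S0 (1.25 ± 0.29), S3 (1.30 ± 0.29) and S6 (1.04 ± 0.29), YTHDF1 2702 was called lower at all 4 stages, from -2.89 ± 0.51 at S4 to -1.0 ± 0.46 at S3, and YTHDF1 1202 was called lower at S3 and S6. YTHDF1 1402 was near the middle, at percentiles 45.7 to 61.5, and YTHDF1 102 ranked between 35.6 and 61.3. YTHDC1 4883, 5883 and 6883 were called in neither direction at S0, S3 and S6. At S4 YTHDC1 4883 (1.05 ± 0.46) and 6883 (2.32 ± 0.63) were called higher, each on the libraries of 1 line, as given below.

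Over both lines, the member peaks whose m6A was called as changed between stages were called in comparisons with S4. The change at a peak is the change of its IP relative to input between 2 stages. From S3 to S4, 3 of the 20 peaks were called, where 6.6% of all peaks were. WTAP 3201 fell by 1.15 ± 0.31 on the log2 scale (adjusted p = 0.0384) and WTAP 5151 by 1.18 ± 0.40 (adjusted p = 0.095), both hypomethylated at S4, and YTHDC1 6883 was hypermethylated by 2.60 ± 0.87 (adjusted p = 0.0881). From S0 to S4, 2 were called against 11.3% of all peaks: WTAP 3201, which fell by 1.01 ± 0.32 (adjusted p = 0.0489), and ALKBH5 1051, which had no IP reads at S4. From S0 to S3 (0.0498% of all peaks), S4 to S6 (7.58%), S0 to S6 (1.26%) and S3 to S6 (0%) none of the 20 was called. At an unadjusted p under 0.05 the members counted 0, 3, 1 and 0 in these 4, and DESeq2 called 0, 1, 1 and 0.

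The median change of all peaks was -0.36 from S3 to S4 and -0.58 from S0 to S4. Relative to it, WTAP 3201 and 5151 stood at -0.80 and -0.82 from S3 to S4 and YTHDC1 6883 at 2.96. Other scalings moved the median of all peaks by 0.19 to 0.47 from S3 to S4, and with relative-log, upper-quartile or separate IP and input scaling the WTAP changes were -0.65 to -0.81 and neither was called. WTAP 3201 was at -0.49 without H1 S4 replicate 1, its call was also lost without H1 S4 replicate 2 or MEL1 S3 replicate 2, and those of WTAP 5151 and YTHDC1 6883 were each lost without any of 12 single preparations. Without both H1 S4 preparations WTAP 3201 was at -0.06 and YTHDC1 6883 at -0.01. When the IP and input of a preparation were paired in the fit, both WTAP calls held, at -1.16 and -1.25, and YTHDC1 6883 was at 1.63 with an adjusted p of 0.377. With the replicate number as a block, fewer peaks were called from S3 to S4, as given in the last section. From S0 to S4, WTAP 3201 stood at -0.43 relative to the median of all peaks and at 0.09 without both H1 S4 preparations. The count of 2 called over that span ran from 0 to 7 with 1 preparation left out.

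**Figure D4:**
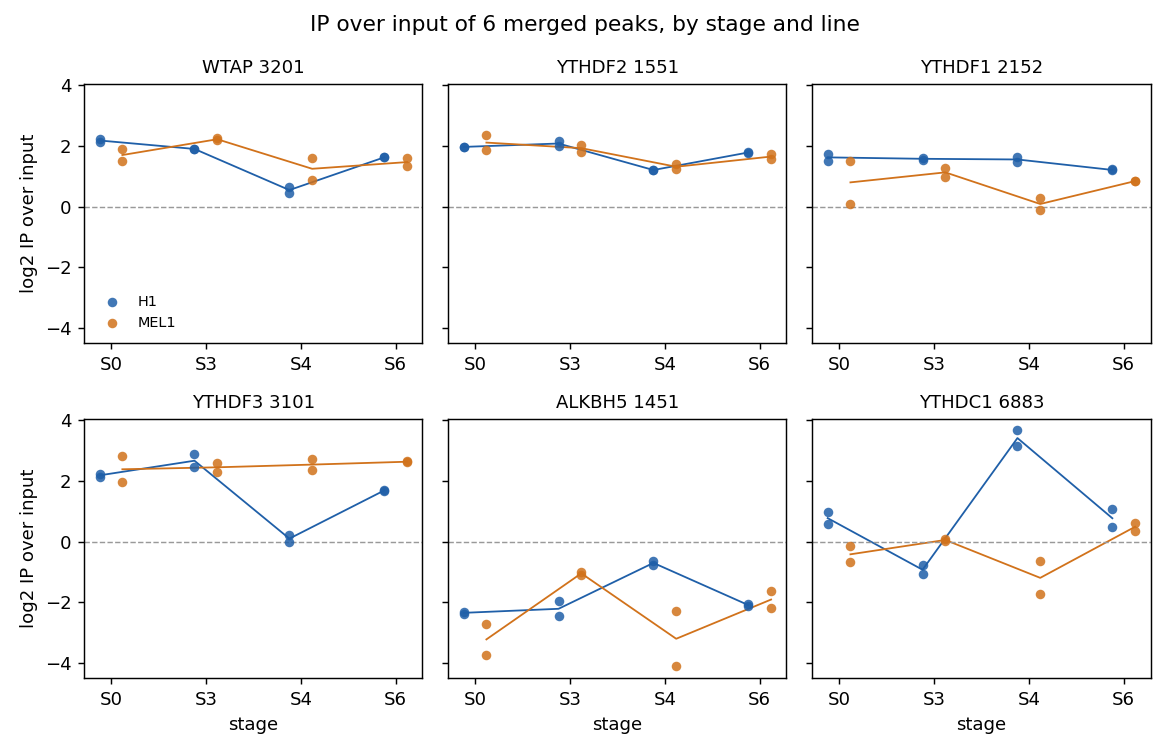
log2 ratio of IP to input (vertical axes) of 6 merged peaks at each stage. Points are single preparations coloured by line, and lines join the means of 2 replicates. WTAP 3201 and YTHDF2 1551 are lowest at S4, YTHDF3 3101 falls to -0.02 and 0.22 in H1 alone, and YTHDC1 6883 reaches 3.65 and 3.15 in H1 with -0.65 and -1.73 in MEL1.

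The lines did not change alike at S4. From S3 to S4 the difference between lines passed the test for 8 of the 20 peaks, where 29.7% of all peaks passed. The widest on deep reads was YTHDC1 6883. Its log2 ratio was -1.07 and -0.78 in H1 at S3 and 3.65 and 3.15 in H1 at S4, and 0.09 and 0.02 in MEL1 at S3 and -0.65 and -1.73 in MEL1 at S4. In H1 its IP reads went from 229 and 249 to 4660 and 4184 while its input reads were 148 and 125, then 126 and 209. In MEL1 its IP reads went from 513 and 553 to 104 and 43. So the peak rose by 4.35 ± 0.38 in H1 and fell by 1.12 ± 0.38 in MEL1, and the MEL1 change minus the H1 change was -5.47 ± 0.54 (adjusted p = 8.41e-08). Relative to the median of all peaks in MEL1 the fall was -0.44, and with MEL1 fitted alone the change was -1.04 with an adjusted p of 0.226. In rank it went from percentiles 33.7 and 37.2 to 95.9 and 97.9 in H1. At S6 it was back to 0.48, 1.05, 0.36 and 0.61, where the lines overlapped.

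The 3 methylated YTHDF3 peaks went in the other direction. YTHDF3 3101 was at 2.44 and 2.87 in H1 at S3 and at -0.02 and 0.22 in H1 at S4, and at 2.28 and 2.60 in MEL1 at S3 and 2.70 and 2.35 in MEL1 at S4. It fell by 2.54 ± 0.37 in H1 and the MEL1 change minus the H1 change was 2.66 ± 0.53 (adjusted p = 0.000736). YTHDF3 2001 went from 1.37 and 1.31 to -0.69 and -0.18 in H1 and from 0.99 and 0.91 to 1.49 and 1.39 in MEL1, a difference of 2.27 ± 0.42 (adjusted p = 0.000315). YTHDF3 1201 went from 1.53 and 1.47 to 0.08 and 0.29 in H1 and from 1.20 and 1.15 to 0.85 and 1.02 in MEL1, a difference of 1.06 ± 0.35 (adjusted p = 0.0306). In all 3 peaks both H1 libraries of S4 were below both MEL1 libraries of S4, while at S3 they were above them for YTHDF3 1201 and 2001. Peaks of 1 gene share its reads and are not independent of each other.

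ALKBH5 351 and 1451 were higher in H1 than in MEL1 at S4. ALKBH5 351 went from -1.46 and -1.87 to -0.21 and -0.26 in H1 and from -1.07 and -2.11 to -3.36 and -2.33 in MEL1, a difference of -2.57 ± 0.80 (adjusted p = 0.0226). ALKBH5 1451 went from -1.96 and -2.46 to -0.62 and -0.78 in H1 and from -1.09 and -1.0 to -4.10 and -2.28 in MEL1, a difference of -3.25 ± 0.79 (adjusted p = 0.00405). The MEL1 S4 libraries held 21 and 54 IP reads at the first peak and 6 and 31 at the second. YTHDC1 4883 differed by 2.11 ± 0.88 (adjusted p = 0.0854), with 126 and 86 IP reads in the MEL1 S4 libraries and 65 and 97 in those of H1. Its input reads there were 21 and 5 in MEL1 and 22 and 64 in H1, and the highest ratio, 3.45, rests on the 5. YTHDF3 801 was the eighth, on 0 to 9 IP reads. The call of ALKBH5 351 was lost without H1 S4 replicate 1 or MEL1 S3 replicate 1, that of YTHDF3 801 without MEL1 S4 replicate 2, and that of YTHDC1 4883 without any of 9 single preparations. The other 5 calls held without each preparation in turn.

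Within H1, 11 of the 20 peaks were called from S3 to S4, 3 up and 8 down, where 31.1% of all peaks were called. The 2 WTAP peaks (-1.35 ± 0.25 and -1.62 ± 0.35) and all 4 YTHDF3 peaks were among those that fell, with ALKBH5 2951 and YTHDF1 2702. Within MEL1, 5 were called, 2 up and 3 down, against 26.6% of all peaks. These counts come from the fit of all 32 libraries. With 1 line fitted alone, 13 were called in H1, where 46.2% of all peaks were, and 0 in MEL1, where 12.7% of all peaks were called and 6 peaks had an unadjusted p under 0.05. YTHDF1 2152 was among those that fell, by 1.02 ± 0.32, from 0.97 and 1.28 to -0.11 and 0.28, while its H1 values were 1.54 and 1.59 at S3 and 1.62 and 1.47 at S4. The WTAP peaks passed the test in MEL1 below the 2-fold limit, at -0.93 ± 0.26 and -0.84 ± 0.36, and YTHDF2 1551 did so in both lines, at -0.87 ± 0.20 in H1 and -0.61 ± 0.20 in MEL1. The median change of all peaks was -0.44 in H1 and -0.68 in MEL1, so relative to it WTAP 3201, WTAP 5151 and YTHDF2 1551 stood at -0.25, -0.16 and 0.07 in MEL1 and at -0.90, -1.17 and -0.43 in H1.

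**Figure D5:**
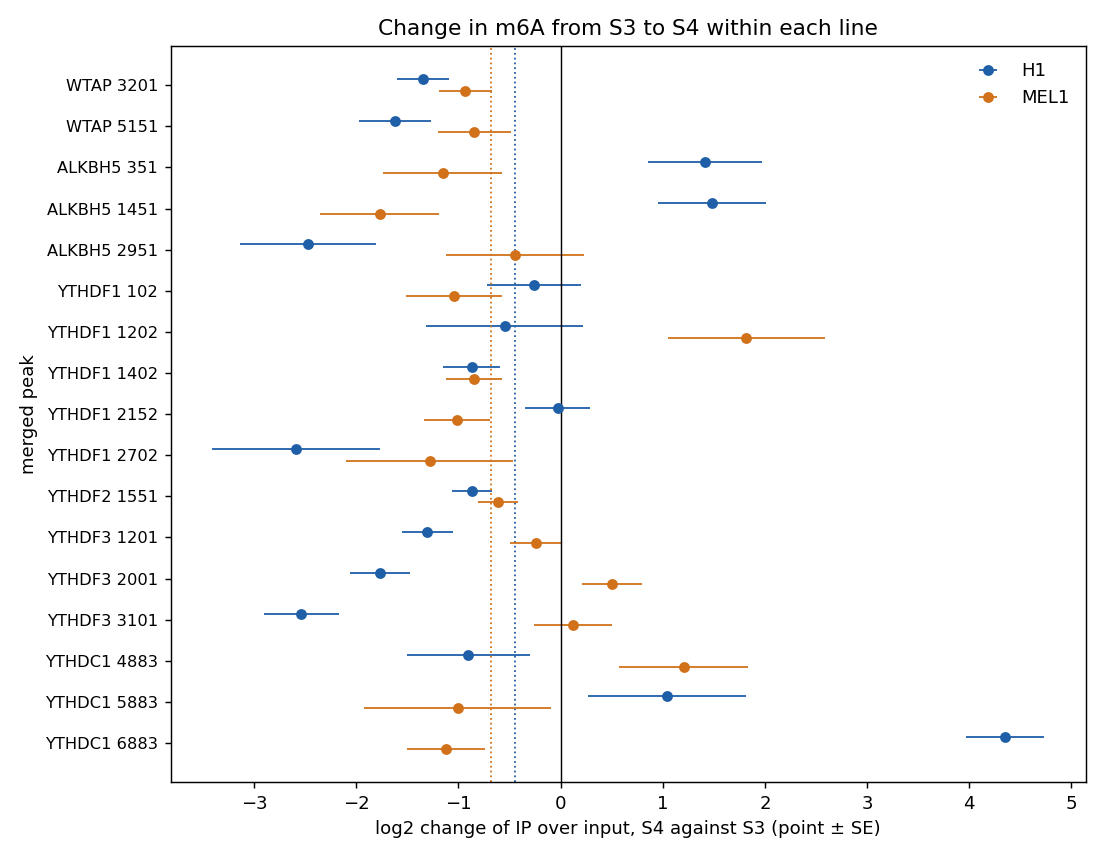
log2 change of the IP to input ratio from S3 to S4 (horizontal axis, point ± SE from the fit across all peaks) for each merged peak (vertical axis), H1 and MEL1 in separate colours. Dotted lines mark the median of all peaks in each line, -0.44 and -0.68; YTHDF3 801 and ALKBH5 1051 and 1351 are left out because their median was under 10 IP reads per library. YTHDC1 6883 lies at 4.35 in H1 and -1.12 in MEL1, and the remaining YTHDF3 peaks lie further to the left in H1.

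From S4 to S6 the difference between lines passed the test for 8 peaks, where 21.3% of all peaks passed, and for 5 with IP and input paired by preparation. This comparison shares the S4 libraries with the one above. The calls of YTHDF3 1201, YTHDF3 2001 and YTHDC1 6883 held without each preparation in turn, while those of ALKBH5 1451, ALKBH5 2951, YTHDF3 801, YTHDF3 3101 and YTHDC1 4883 were lost without any of 4, 11, 13, 5 and 3 single preparations. The count fell to 3 without H1 S6 replicate 2, to 4 without H1 S6 replicate 1 or MEL1 S6 replicate 1, and to 5 without H1 S4 replicate 2 or MEL1 S6 replicate 2. YTHDC1 6883 fell by 2.66 ± 0.38 in H1 and rose by 1.55 ± 0.39 in MEL1. YTHDF3 3101 rose by 1.58 ± 0.37 in H1, and WTAP 3201 and 5151 by 1.07 ± 0.26 and 1.29 ± 0.35. Within H1 5 peaks were called up and 2 down (26% of all peaks called), and within MEL1 1 up and 3 down (22.1%). From S0 to S3, 3 peaks passed the test of the difference against 12.3% of all peaks: YTHDC1 6883 (2.18 ± 0.53, adjusted p = 0.0101), YTHDF3 2001 (-1.30 ± 0.41, adjusted p = 0.0488) and YTHDF3 801. That of YTHDF3 2001 was lost without any of 6 single preparations, and the count was 8 without MEL1 S0 replicate 1. Averaged over the stages, 2 peaks were called lower in MEL1 than in H1, ALKBH5 351 (-1.19 ± 0.28, adjusted p = 0.00294) and YTHDC1 6883 (-1.24 ± 0.19, adjusted p = 3.32e-05), where 18.7% of all peaks were called. By stage, MEL1 minus H1 at YTHDC1 6883 was -1.19 at S0 (adjusted p = 0.0377), 0.98 at S3 (0.203), -4.49 at S4 (7.13e-09) and -0.27 at S6 (0.802), so the sign at S3 was the opposite and S4 was the widest. For ALKBH5 351 it was -1.10, 0.09, -2.47 and -1.29, of which only S4 passed the test (adjusted p = 0.00181).

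From S0 to S4 the difference between lines passed for 6 peaks, against 18.9% of all peaks. They were WTAP 3201 (1.20 ± 0.36), WTAP 5151 (1.37 ± 0.50), ALKBH5 2951 (4.08 ± 0.96), YTHDF3 3101 (2.27 ± 0.53), YTHDC1 4883 (2.34 ± 0.89) and YTHDC1 6883 (-3.29 ± 0.54). The call of WTAP 3201 was lost without H1 S0 replicate 1 or MEL1 S4 replicate 1. Those of WTAP 5151 and YTHDC1 4883 were each lost without any of 9 single preparations, and also with IP and input paired by preparation (adjusted p = 0.123 and 0.114). From S0 to S6 (6.57% of all peaks) and S3 to S6 (0.621%) edgeR passed none, 4 and 2 had an unadjusted p under 0.05, and DESeq2 passed 3 and 0.

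Several measures moved with the line. Like the liver and undifferentiated markers above, the proliferation genes MKI67 and TOP2A already differed at S3, where they summed to 228 to 274 CPM in MEL1 and 766 to 825 CPM in H1, and at S4 they summed to 175 to 241 and 531 to 648 CPM. COL1A1, the 1 measured mesenchymal marker, read 78.7 to 85.6 CPM in MEL1 and 66.4 to 69 CPM in H1 at S3, then 586 to 630 and 33.3 to 37.6 CPM at S4. The MEL1 S4 IP libraries held 2378881 and 2483580 reads against 7422690 to 15674899 in all other IP libraries. The part of the marker genes in the S4 results was not tested. With the IP libraries thinned to 1 depth, 11 peaks passed the difference between lines from S3 to S4. Over both lines, fewer peaks were then called from S3 to S4 and from S0 to S4.

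Other genes of the m6A pathway were counted from a list of 41, of which 25 had merged peaks. METTL3, METTL14 and FTO were not analysed here. Input was called for 2 up and 2 down from S0 to S3 (28.8% of all genes called), for 1 up and 3 down from S0 to S4 (31.2%), for 7 down and none up from S0 to S6 (31.4%), and for 1 down from S3 to S6 (14%), each a smaller share of the 25 than of all genes. From S3 to S4 and from S4 to S6 none was called. The median of the list from S0 to S6 was -0.63, and that of all genes 0.03. METTL16, a methyltransferase of U6 and MAT2A RNA, fell by 1.38 from S0 to S6. AHCY, which clears the product of methylation reactions, fell by 1.32, DDX6, a decay helicase, by 1.48, and CPSF6, a cleavage factor subunit, by 1.25. RBMX, an RNA-binding protein, fell by 1.07 and the splicing factor SRSF10 by 1.02. RBM15B, which helps bring the writer complex to RNA, rose by 1.09 from S0 to S3, and NXF1, the export receptor that works with YTHDC1, by 1.76. NXF1 was also the gene called down from S3 to S6, where it fell by 1.09 (adjusted p = 0.0242). In m6A, 3 of the list's 106 peaks were called up and 10 down from S3 to S4 (6.6% of all peaks called), 3 up and 16 down from S0 to S4 (11.3%), 6 up and 5 down from S4 to S6 (7.58%) and 3 down from S0 to S6 (1.26%). From S0 to S3 and from S3 to S6 none was.

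The patterns of the 6 transcripts over the 16 input libraries were compared by Spearman correlation with those of 6525 genes whose mean input reached 5 CPM. The points share stage and line, and the values are descriptions. WTAP was most like ABHD13 (0.885) and INTS15 (0.859), ALKBH5 like BICD2 (0.912) and MPRIP (0.906), YTHDF1 like ZNF552 (0.959) and UPF3A (0.944), YTHDF2 like SMARCAD1 (0.932) and PDF (0.929), YTHDF3 like MRPL27 and EIF4G1 (0.935 each), and YTHDC1 like ALPK3 (0.868) and DCUN1D3 (0.853). Among the 6, YTHDF1 and YTHDF3 were most alike (0.797), WTAP and YTHDC1 followed (0.706), and ALKBH5 and YTHDF2 were opposed (-0.741).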

How the data were processed

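m6A-seq was read from a deposited table of raw read counts per merged peak. Per the labels and the study's methods, the authors fragmented poly(A) RNA, immunoprecipitated it with an m6A antibody, counted reads in 50-bp bins of Ensembl 94 genes and joined peaks with MeRIPtools. The aligner and genome build are not given in the sources used here, so no coordinates or sequences are printed. Counts were analysed with edgeR 4.0.16 in R 4.3.3 (TMM scaling, quasi-likelihood test, Benjamini-Hochberg adjustment over all genes or peaks with a total of at least 10). All 20 member peaks passed this filter. DESeq2 1.42.0, other scalings, filters, designs and left-out libraries were alternatives. Input per gene is the sum over its merged peaks. Log2 ratios per preparation use a prior count of 1. IP and input of a preparation come from the same RNA and are paired. The main m6A tests had no term for this pairing, and a fit that paired them was an alternative. Replicates are independent samples per the study, and no source says that their numbers link stages. The members and lists were chosen with earlier results of these data known. Genes named are the 6 members, the 2 genes most like each, and, of the pathway genes called (adjusted p under 0.1 and 2-fold), the 8 with the smallest adjusted p. The tests were tested on simulated data. A gene or peak that was not called is not thereby shown to be unchanged. Depth is given in the report; counts of 0 are given as reads.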

Additional observations from a re-analysis of the deposited data

Results flagged for a closer look

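Among 104 groups of 4 libraries (a stage of a gene or peak), 7 held 1 value apart from the other 3 by Dixon's test (gap over range above 0.829), and chance alone flags about 1 in 20 groups. The input of YTHDF2 in MEL1 replicate 2 at S6 was 251.7 CPM, with the others at 289.4 to 295.9. The other 6 were log2 ratios of IP to input. WTAP 3201 was 1.335 in MEL1 replicate 2 at S6 (others 1.583 to 1.616), ALKBH5 2951 was -1.065 in MEL1 replicate 1 at S4 (others -3.182 to -3.051), and YTHDF1 102 was -1.581 in H1 replicate 1 at S4 (others -0.6028 to -0.5184). YTHDF1 1202 was -4.506 in MEL1 replicate 1 at S6 (others -1.683 to -1.391), on 5 IP reads. In MEL1 replicate 2 at S0, YTHDF1 2152 was 0.08695 (others 1.489 to 1.739) and YTHDF3 1201 was 2.179 (others 1.368 to 1.473). Of the 7 values, 6 were from MEL1, and MEL1 replicate 2 at S0 and at S6 gave 2 each.

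Of 156 differences between lines tested over all 6 pairs of stages, 37 passed an adjusted p under 0.1 by edgeR's quasi-likelihood test. They are given as the MEL1 change minus the H1 change on the log2 scale. In input from S0 to S3 they were -0.5686 for ALKBH5 and -0.7595 for YTHDF2, and from S4 to S6 -1.008 for YTHDF1 and 0.6239 for YTHDF2. In input from S0 to S4 they were -0.6737 for WTAP, -0.7939 for ALKBH5, 0.6707 for YTHDF1 and -0.7361 for YTHDF2, from S0 to S6 -0.4286 for WTAP and -0.6817 for ALKBH5, and from S3 to S6 -0.5541 for YTHDF1 and 0.6473 for YTHDF2. In m6A from S0 to S3 they were -10.71 for YTHDF3 801, -1.304 for YTHDF3 2001 and 2.177 for YTHDC1 6883. In m6A from S3 to S4 they were -2.567 for ALKBH5 351, -3.254 for ALKBH5 1451, 9.279 for YTHDF3 801, 1.061 for YTHDF3 1201, 2.267 for YTHDF3 2001, 2.66 for YTHDF3 3101, 2.106 for YTHDC1 4883 and -5.471 for YTHDC1 6883. In m6A from S4 to S6 they were 2.322 for ALKBH5 1451, -2.422 for ALKBH5 2951, -8.673 for YTHDF3 801, -1.214 for YTHDF3 1201, -1.908 for YTHDF3 2001, -1.511 for YTHDF3 3101, -2.809 for YTHDC1 4883 and 4.217 for YTHDC1 6883. In m6A from S0 to S4 they were 1.198 for WTAP 3201, 1.367 for WTAP 5151, 4.084 for ALKBH5 2951, 2.274 for YTHDF3 3101, 2.344 for YTHDC1 4883 and -3.294 for YTHDC1 6883. The pairs of stages share libraries. The values of YTHDF3 801 come from libraries with 0 to 9 IP reads and from 2 with over 100, and depend on the prior count, so they are no measure of size.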

How the results depend on the processing

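Counts of members called that moved by over 1.5 times are given here by setting, in m6A unless input is named. In 1 line alone, H1 gave 3 (S0 to S3), 9 (S0 to S4), 13 (S3 to S4), 1 (S0 to S6), 2 (S3 to S6) and 11 (S4 to S6), and MEL1 gave 2 (S0 to S3), 0 (S0 to S4), 0 (S3 to S4), 2 (S0 to S6) and 3 (S4 to S6). In input H1 alone gave 1 from S0 to S6 and 1 from S3 to S6, and MEL1 alone 1 from S4 to S6. Without both MEL1 S4 preparations the counts were 11 (S0 to S4), 9 (S3 to S4), 1 (S0 to S6) and 5 (S4 to S6), and without both H1 S4 preparations 1 (S0 to S4), 1 (S3 to S4), 3 (S4 to S6) and 7 called higher at S4. These 4-library omissions, the per-peak input and the peak usage test were chosen after seeing the data. DESeq2 gave 4 called higher at S3, 4 (S0 to S4), 1 (S3 to S4), 1 (S0 to S6) and 1 (S4 to S6), 6, 3 and 4 differences between lines (S0 to S3, S0 to S6 and mean of stages), and in input 1 from S3 to S6 and 1 difference between lines each from S3 to S4 and from S0 to S6. Relative-log scaling gave 4 called higher at S3 and 1 (S3 to S4), and in input 1 from S3 to S6 and 1 difference between lines from S3 to S4. Thinning the IP libraries gave 4 at S3, 1 (S0 to S4), 1 (S3 to S4) and 4 differences over the mean of stages. Leaving out mitochondrial transcripts gave 4 at S3, 1 (S0 to S4) and 1 (S3 to S4). Scaling within IP and within input gave 10 called higher at S4, 1 (S0 to S4) and 1 (S3 to S4), library totals gave 9 at S4, and the upper quartile 1 (S3 to S4). A model with no cell line gave 1 (S0 to S4) and 1 (S3 to S4), and a fit of only the 2 stages compared 0 (S0 to S4). IP counts without input gave 1 (S0 to S3), 7 (S0 to S4), 6 (S0 to S6), 3 (S3 to S6) and 3 (S4 to S6). The input of the peak with the most reads gave 1 (S0 to S6) and 2 (S3 to S6), and members with a peak called alone were 2 and 2.

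Leaving out 1 preparation at a time gave 3 to 7 peaks called higher at S4 and 5 to 6 at S6, with 7 at S0 and S3 throughout. The m6A counts ran from 0 to 7 (S0 to S4), 0 to 5 (S3 to S4), 0 to 1 (S0 to S6) and 0 to 1 (S4 to S6), and stayed at 0 for S0 to S3 and S3 to S6. Differences between lines ran from 2 to 8 (S0 to S3), 6 to 10 (S3 to S4), 3 to 10 (S4 to S6), 3 to 9 (S0 to S4), 0 to 4 (S0 to S6) and 1 to 4 (mean of stages), with 0 throughout from S3 to S6. In input they ran from 1 to 3 (S0 to S3), 0 to 1 (S3 to S4) and 1 to 2 (S4 to S6, S0 to S6 and S3 to S6), with 4 throughout from S0 to S4, and the stage counts from 0 to 1 (S3 to S6) and 0 in the other 5.

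Reversed values were as follows. WTAP 3201 from S0 to S4 was 0.22 in IP counts without input and 0.0904 without both H1 S4 preparations. YTHDC1 4883 at S4 was -0.29 in H1 alone and -0.35 without both MEL1 S4 preparations, and from S4 to S6 1.02 in H1 alone. YTHDC1 5883 from S3 to S4 was 1.05 in H1 alone. YTHDC1 6883 at S4 was -1.06 in MEL1 alone and -0.47 without both H1 S4 preparations, from S3 to S4 -1.04 and -0.0106 under the same settings, and from S4 to S6 1.58 in MEL1 alone. YTHDF3 801 in H1 alone was 3.85 from S0 to S3 and -5.44 from S3 to S4, on 0 to 9 IP reads, so these 2 values depend on the prior count and are no measure of size. Where a setting leaves out libraries, fewer samples enter the fit; otherwise the cause was not tested.

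No source says that replicate numbers link cultures across stages. Deviations of same-numbered samples correlated at -0.00784 to 0.0522 in input and -0.00913 to 0.022 in m6A in H1, and at 0.0656 to 0.128 and -0.0719 to 0.208 in MEL1, where 4 of 6 input pairs and 1 of 6 m6A pairs were above 0.1. With the replicate number as a block, 1 peak was called from S3 to S4 and 3 from S0 to S4. With IP and input paired by preparation as a replicate block, 5 differences between lines passed from S4 to S6, 2 peaks were called from S3 to S4, and 3 were called higher at S4; no other count moved by over 1.5 times.

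The MEL1 S4 IP libraries were the shallowest, at 2378881 and 2483580 reads, and ALKBH5 1051, ALKBH5 1351 and YTHDF3 801 had too few IP reads for a fold to measure size. Filters on low counts left all 20 peaks in.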
